A study of Homo sapiens with 5 samples.

Results

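The hexokinase family was examined in D54, an established human glioma cell line, after silencing of TIP-1. The 4 members, HK1, HK2, HK3 and the hexokinase domain-containing gene HKDC1, were found by gene symbol, and each had 1 row (identifiers 7928019, 8042942, 8115957 and 7927998) among the 33297 rows of the array table. No row shared a member's symbol with another gene. The family was chosen by an earlier reading of these values, in which HKDC1 was among the genes with the largest differences between the groups, so its difference is given as a description. Its relatives entered by kinship. The 5 samples were 2 cultures transfected with control shRNA, stated to be independent clones, and 3 transfected with TIP-1 shRNA, each with a different shRNA. All were grown overnight after seeding in the same medium, and each gave 1 array without technical replicates. Because each shRNA was measured once, the spread among the 3 arrays includes any difference between shRNA sequences, and no p-value separates clones from treatment.

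Hexokinases add a phosphate to glucose once it has entered the cell, which traps the sugar and commits it to glycolysis, the pentose phosphate pathway, glycogen or the hexosamine pathway. HK1 is the widely expressed form and the main one in normal brain. HK2 is inducible, for example by hypoxia, and is the form best known from glioblastoma, while HK3 is found mainly in myeloid blood cells. HK1 and HK2 can bind the mitochondrial outer membrane through the channel protein VDAC. HKDC1 is the most recently recognised member, known from epithelia and liver, and lies beside HK1 on chromosome 10.

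The promoters of HKDC1 and HK2 are shown because these were the members whose arrays separated by group, in opposite directions. The sequences are the 250 bases before the most 5′ annotated start, from RefSeq (GRCh38.p14), with capitals marking CG dinucleotides. The HKDC1 stretch lies at chr10:69220082-69220331 and that of HK2 at chr2:74833877-74834126, both on the plus strand.
HKDC1: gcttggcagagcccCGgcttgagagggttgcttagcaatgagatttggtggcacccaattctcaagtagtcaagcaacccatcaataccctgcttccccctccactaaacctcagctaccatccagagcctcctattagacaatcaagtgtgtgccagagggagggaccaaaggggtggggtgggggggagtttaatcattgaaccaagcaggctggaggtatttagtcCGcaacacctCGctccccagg
HK2: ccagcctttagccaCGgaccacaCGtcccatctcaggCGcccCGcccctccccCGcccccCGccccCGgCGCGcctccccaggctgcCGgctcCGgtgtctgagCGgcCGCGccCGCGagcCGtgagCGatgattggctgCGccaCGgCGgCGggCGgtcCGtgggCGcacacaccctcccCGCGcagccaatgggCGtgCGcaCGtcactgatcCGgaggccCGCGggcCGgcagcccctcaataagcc

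The HKDC1 stretch held 3 CG dinucleotides at a GC content of 54.4%. The HK2 stretch held 34 at a GC content of 76.8%. The median over 27305 genes, taken the same way, was 10 CG dinucleotides and 57.6% GC, so HKDC1 lay below it on both counts and HK2 above. HK1, at the most 5′ of its 7 annotated starts, held 1 (46.8% GC) and HK3 held 4 (48.4% GC). The other starts of HK1 were not read. The core of the hypoxia response element was searched on both strands as ACGTG and as GCGTG. HK2 held 2 matches of the first form and 1 of the second, and the stretches of HKDC1, HK1 and HK3 held 0 of either. Over all genes, 18.6% of such stretches held the first form and 31.9% the second. These matches describe letters only, and binding was not measured.

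The silencing was checked first. The row of TAX1BP3, the gene of TIP-1 (shared with a read-through transcript), read 12.05 and 12.10 in the controls, against 9.81, 9.61 and 9.55 with shRNAs 1, 2 and 3. Values throughout are log2 signals, in which 1 unit is a 2-fold difference. This was the only row past the threshold of the test over all rows, limma with Benjamini-Hochberg adjustment at 0.05, that is 0.00300% of rows. Of the hexokinases, 0 of 4 passed. Among the 3 not chosen for their difference, HK2 alone had an unadjusted p under 0.05, as had 2315 of all rows.

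HKDC1 was higher in every TIP-1 shRNA array than in either control. It read 8.64 and 9.33 in the controls, against 10.05, 10.12 and 10.31 with shRNAs 1, 2 and 3. The shRNA arrays lay close together, within 0.27 log2 units, whereas the controls were 0.69 apart, and the groups did not overlap. The means were 8.98 ± 0.49 (SD, n = 2) and 10.16 ± 0.14 (SD, n = 3), a difference of 1.17 log2 units (SE 0.21) or 2.26-fold. Each shRNA alone stood 2.09-fold, 2.19-fold and 2.51-fold above the control mean. Among 19460 rows with 1 gene symbol, this was the 13th highest difference, which restates how the gene was chosen. Without control 1 the difference was 0.83, and without control 2 it was 1.52, so the choice of control moved its size more than the choice of shRNA did (1.10 to 1.23 with 1 shRNA left out).

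HK2 was the other member whose groups separated, and it was lower. It read 9.08 and 9.22 in the controls, against 8.70, 8.63 and 8.48 with shRNAs 1, 2 and 3. Every TIP-1 shRNA array therefore lay below both controls, by more than the spread within either group. The means were 9.15 ± 0.10 (SD, n = 2) and 8.60 ± 0.11 (SD, n = 3), a difference of -0.55 log2 units (SE 0.10, 95% interval -0.80 to -0.29) or 1.46-fold lower. HK2 did not pass the test over all rows (limma adjusted p = 0.707). Only 0.982% of single-symbol rows differed by more in either direction.

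HK1, the ubiquitous form, was nearly level. It read 11.59 and 11.63 in the controls, against 11.60, 11.59 and 11.58 with the shRNAs, and the groups overlapped. The difference was -0.02 log2 units (SE 0.08, limma adjusted p = 0.951), with its sign turned by median centring (0.04). Its 95% interval ran from 0.864-fold to 1.12-fold, so a difference of the size read for HKDC1 or HK2 lay outside it.

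HK3, the myeloid form, gave a low signal in every array. It read 7.33 and 7.52 in the controls, against 7.36, 7.30 and 7.33 with the shRNAs, below every array's median (7.88 to 7.98). With no detection call in the table, it could not be said whether HK3 was above background. The difference was -0.10 log2 units (SE 0.09, 95% interval -0.32 to 0.13, limma adjusted p = 0.801), and shRNA 1 lay between the controls.

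**Figure D1:**
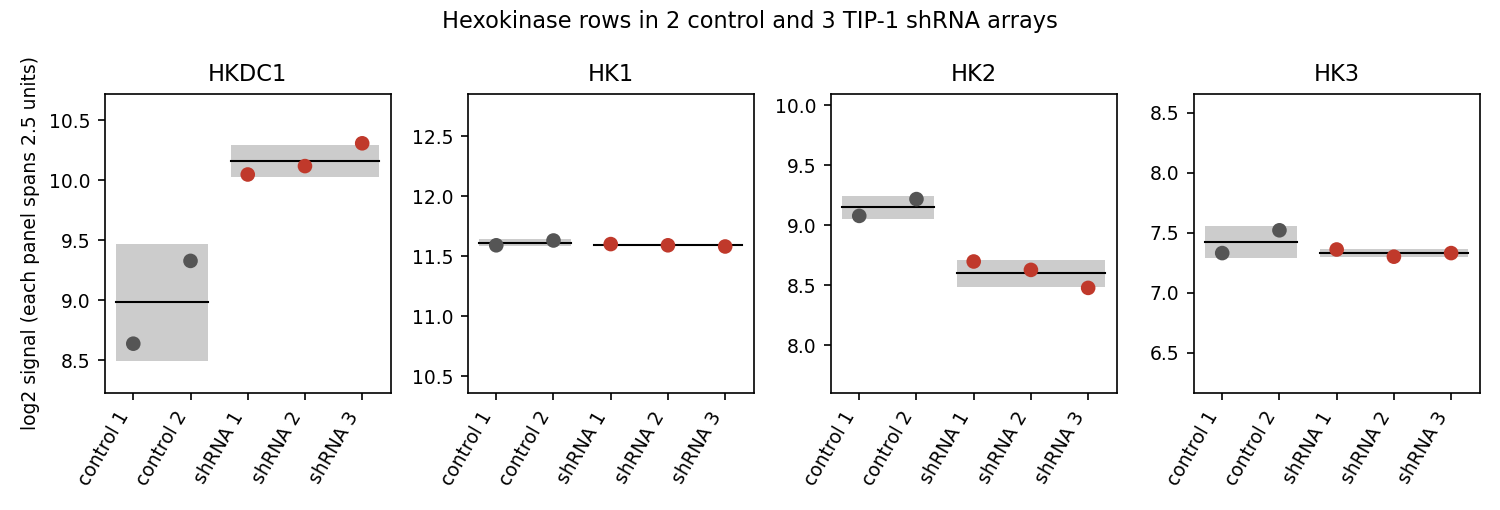
Log2 signal of each hexokinase in the 2 control (grey) and 3 TIP-1 shRNA (red) arrays, with each group's mean (line) and SD (band); every panel spans the same height. The shRNA arrays lie above both controls for HKDC1 (10.05 to 10.31 against 8.64 and 9.33) and below both for HK2 (8.48 to 8.70 against 9.08 and 9.22), and overlap them for HK1 and HK3.

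Thus 1 of 4 members had all shRNA arrays above both controls and 1 of 4 had all below. Over all rows these shares were 11.6% and 14.5%. Set beside the loss of TAX1BP3, shRNA 1 gave differences from the control mean of -2.27 for TAX1BP3, 1.06 for HKDC1 and -0.44 for HK2. shRNA 2 gave -2.47, 1.13 and -0.52 for the same genes, and shRNA 3 gave -2.52, 1.33 and -0.67. All 3 genes thus showed their smallest difference with shRNA 1 and their largest with shRNA 3. These values share their controls and come from 1 array per shRNA, so the order carries no test. The array medians were ordered the same way, at 7.95, 7.90 and 7.88, and their part in this order was not tested.

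HKDC1 and HK1 are direct neighbours, so the pair was compared within each array. Relative to the control mean, the log2 ratio of HKDC1 to HK1 was -0.33 and 0.33 in the controls, against 1.08, 1.16 and 1.36 with shRNAs 1, 2 and 3. All shRNA arrays lay above both controls, with a mean of 1.20 ± 0.15 (SD, n = 3) against an SD of 0.46 between the controls. The ratio shows unequal change of the pair and has no test, since HKDC1 was chosen for its difference. Probe sequences were not used here, so any sharing of signal between these related genes was not tested.

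Of the 10 annotated genes on each side of HKDC1, 9 had a row, and 0 of the 9 passed the test. Of these, 2 had all shRNA arrays above both controls and 3 had all below, beside 11.6% and 14.5% of all rows, and the median difference was -0.10 log2 units. On the upstream side, SUPV3L1, a mitochondrial RNA helicase, differed by -0.12 and VPS26A, a subunit of the retromer sorting complex, by 0.16. SRGN, the core protein of an intracellular proteoglycan, read 12.79 and 12.94 in the controls, against 12.39, 12.08 and 12.68 with the shRNAs. Its shRNA arrays thus lay below both controls, with a difference of -0.48 (SE 0.18, limma adjusted p = 0.707). Farther out, KIFBP, a kinesin-binding protein, differed by 0.09 and the RNA helicase DDX21 by -0.10 (0.03 without shRNA 3, and also higher with array weights or the replicate block).

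Beyond HK1, the tachykinin receptor TACR2 differed by -0.11 and the endocrine transcription factor NEUROG3 by -0.18. Both rows were dim, TACR2 at 7.65 to 7.87 and NEUROG3 at 7.21 to 7.54. These values lie below every array's median, where presence cannot be called. TSPAN15, a tetraspanin that guides the sheddase ADAM10, had a difference about as large as that of HKDC1 (1.16, SE 0.77). It rested on 1 control, however: TSPAN15 read 8.09 and 10.61 in the controls, against 9.93, 10.23 and 11.36 with the shRNAs. The groups overlapped, and the difference was -0.10 without control 1 and 2.42 without control 2. Control 1 was the lowest array and shRNA 3 the highest for both TSPAN15 and HKDC1, while HK1 and TACR2, which lie between them, differed by -0.02 and -0.11.

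**Figure D2:**
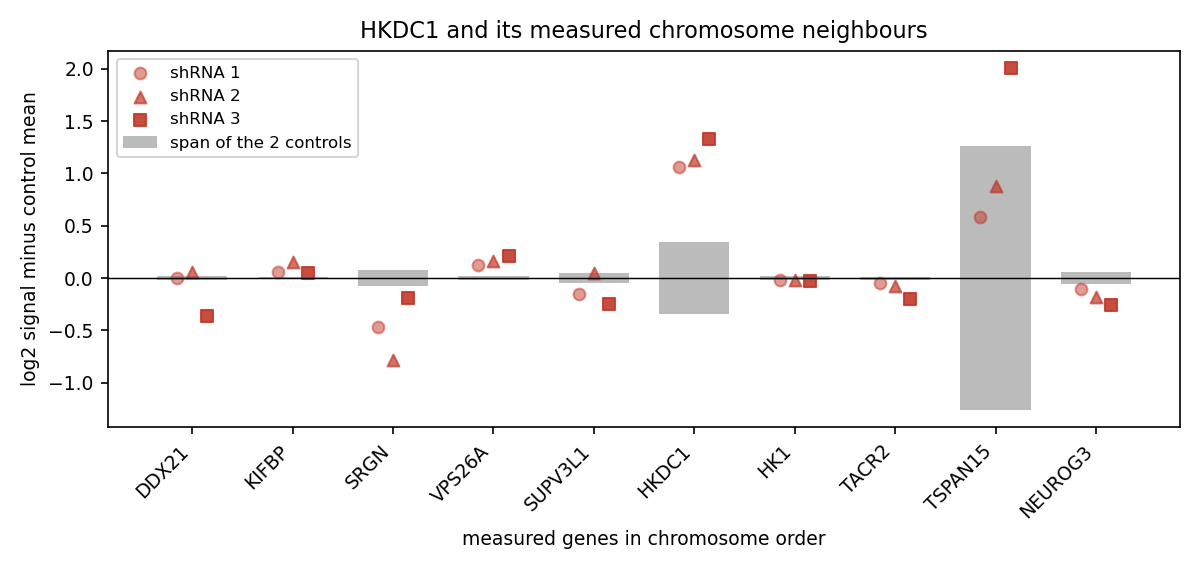
Log2 signal minus the control mean for HKDC1 and its 9 measured neighbours in chromosome order (not to scale), with a red symbol for each TIP-1 shRNA array and a grey bar for the span of the 2 controls. HKDC1 stands above its bar in all 3 shRNA arrays, HK1 beside it stays near 0, and the bar of TSPAN15 (8.09 to 10.61) takes in 2 of its 3 shRNA arrays.

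The genes whose pattern over the 5 arrays was most like that of HKDC1 were sought among the 19459 other single-symbol rows, by the root mean square distance between values centred on each row's mean. The nearest was COL8A1, a short-chain collagen (distance 0.219 log2 units, Pearson r = 0.956 over 5 arrays). It read 7.56 and 8.22 in the controls, against 8.86, 8.72 and 8.64 with the shRNAs. Next came PTPRB, a receptor tyrosine phosphatase known from endothelium (0.242, r = 0.959), PRR16 (0.244, r = 0.944) and the tight junction protein CLDN1 (0.283, r = 0.900). The fifth, SPATA6 (0.297, r = 0.920), had shRNA 1 between its controls. Only 5 points enter each r, of which 3 share a treatment, and 173 rows (0.889%) reached an r of 0.95 or more. PTPRB was the steadiest of the 5, at 8.30 and 8.44 in the controls, against 9.21, 9.26 and 9.26 with the shRNAs (difference 0.87, SE 0.09, limma adjusted p = 0.213). None of the 5 passed the test over all rows. The difference of COL8A1, 0.85 with all arrays, was 0.52 without control 1, and that of SPATA6, 0.60 with all arrays, was 0.26 without control 1.

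**Figure D3:**
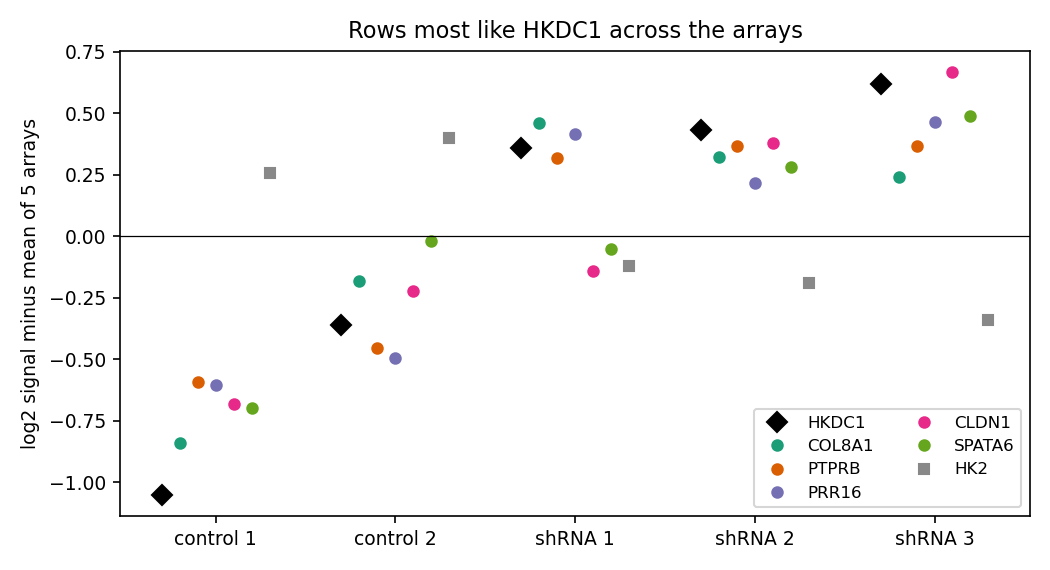
Log2 signal minus the mean of all 5 arrays for HKDC1 (black diamonds), the 5 single-symbol rows nearest to it (circles) and HK2 (grey squares). HKDC1 and the like rows are lowest in control 1, whereas HK2 is high in both controls and low in the 3 shRNA arrays.

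Other enzymes that phosphorylate sugars differed less than HKDC1 and HK2. ADPGK, which phosphorylates glucose with ADP in place of ATP, differed by 0.06 (95% interval -0.15 to 0.27). GCKR, a regulator of glucokinase and not such an enzyme, differed by -0.03 (0.03 with quantile normalization or median centring). Of 8 kinases of other sugars, 0 passed the test. Among them 1 had its shRNA arrays all above the controls and 0 all below (12.5% and 0%, beside 11.6% and 14.5% of all rows). That 1 was GNE, which makes and phosphorylates the precursor of sialic acid, at 9.52 and 9.32 in the controls, against 9.70, 9.70 and 9.58 with the shRNAs (difference 0.24, SE 0.10). Fructokinase KHK differed by -0.15, ranging from -0.26 without control 1 to -0.05 without control 2. The galactokinase GALK2 differed by 0.10 (0.04 without shRNA 3, 0.18 without shRNA 1) and GALK1 by -0.02, turning to 0.04 with median centring. The remaining FCSK (-0.04), XYLB (-0.01), NAGK (0.01) and RBKS (0.09) also changed sign under at least 1 other scaling or left-out array. RBKS, ribokinase, varied most within groups, with controls at 9.27 and 8.44.

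Glucose entry, the step before hexokinase, was read through 16 genes of the SLC2A, SLC5A and SLC50A transporter families. The list was not limited to transporters whose main substrate is glucose. None passed, 2 had all shRNA arrays above both controls (12.5%, beside 11.6% of all rows) and 4 had all below (25%, beside 14.5%). The median difference was 0.01, and -0.03 without control 1 or shRNA 2. The smallest p belonged to SLC2A1, the GLUT1 transporter that supplies most cells with glucose. It read 11.92 and 11.74 in the controls, against 12.29, 12.29 and 12.13 with the shRNAs. Its shRNA arrays lay above both controls, with a difference of 0.41 (SE 0.10, 95% interval 0.16 to 0.66, limma adjusted p = 0.707) or 1.33-fold. SLC2A10 (-0.19), SLC2A9 (-0.18, but -0.09 without control 2) and SLC50A1 (0.21, but 0.09 without shRNA 3) followed, all with separated groups. SLC2A3, the high-affinity GLUT3 transporter, differed by 0.23, with shRNA 3 (10.11) between the controls at 10.09 and 10.36. The difference was 0.09 without control 1 and 0.40 without shRNA 3, and the gene is named outside the rule, after its value was seen.

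Below hexokinase, the shared enzymes of glycolysis and lactate formation had small mean differences. Of 20 measured genes, 0 passed, 1 had all shRNA arrays above both controls and 0 had all below, and the differences ran from -0.18 to 0.24 with a median of -0.03 (0.03 with median centring). The 4 with the smallest p were the phosphofructokinase PFKM (0.17), the enolases ENO2 (0.24, but -0.03 without control 1) and ENO1 (-0.09), and the testis dehydrogenase GAPDHS (-0.18, but -0.06 without control 2 or shRNA 3). The aldolase ALDOC, named after its value was seen, is the least settled: its controls read 10.69 and 9.62, and its difference of 0.23 had a 95% interval from -0.64 to 1.09. It was 0.76 without control 1 and -0.31 without control 2. Separated groups were found for 5% above and 0% below, beside 11.6% and 14.5% over all rows. Among 7 genes that set the level of fructose 2,6-bisphosphate or run the step backwards, PFKFB2 had the largest difference. It makes this activator of phosphofructokinase, and read 7.89 and 7.72 in the controls against 8.23, 8.35 and 8.60 with the shRNAs (difference 0.59, SE 0.13, 95% interval 0.26 to 0.91). It did not pass (limma adjusted p = 0.707), and the other 6 genes had overlapping groups. The list thus had 14.3% above and 0% below, beside 11.6% and 14.5% of all rows. Both PFKFB2 controls lay below their array medians (7.96 and 7.98), where presence cannot be called. TIGAR, which breaks the same activator down, differed by 0.39, but by 0.16 without control 2, while FBP2 differed by 0.12 and PFKFB1 by -0.13.

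Of 20 genes that take glucose 6-phosphate elsewhere, 0 passed, 1 had all shRNA arrays above both controls and 4 had all below (5% and 20%, beside 11.6% and 14.5% of all rows). The median was -0.03, turning to 0.03 with median centring. The lowest p belonged to G6PC1, the phosphatase that reverses the hexokinase step in liver (-0.22, SE 0.08), a dim row at 5.98 to 6.27. GFPT1, which opens the hexosamine pathway, differed by -0.21, but by -0.08 without control 1. PGM1, on the way to glycogen, differed by -0.17 (-0.06 without control 1), and H6PD, which oxidises the sugar in the endoplasmic reticulum, by -0.27 (-0.09 without shRNA 3). A list of 7 mitochondrial outer membrane genes held the VDAC channels, TSPO, BAX, BAK1 and BAD. Only VDAC is named above as a binding site of hexokinase. None had separated groups (0% above and 0% below, beside 11.6% and 14.5% of all rows), and the differences ran from -0.10 to 0.10. TSPO (0.10), BAD (0.08), BAK1 (0.08, but -0.02 without control 1) and VDAC2 (0.06, and 0.08 on its other row) had the smallest p.

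Known regulators of hexokinase genes were measured for 13 genes, and 0 passed. Of these, 4 had all shRNA arrays above both controls and 2 all below (30.8% and 15.4%, beside 11.6% and 14.5% of all rows). The median was 0.04, but -0.04 without shRNA 3 or with the replicate block and -0.015 with array weights. ARNT, the constant partner of the hypoxia-inducible factors, read 10.67 and 10.77 in the controls, against 10.39, 10.44 and 10.61 with the shRNAs (difference -0.24, SE 0.10). SREBF1, which drives lipid synthesis genes, differed by 0.26 (SE 0.12), the glucose-sensing factor MLXIPL by -0.15 and the kinase AKT1 by 0.14. HIF1A, which induces HK2 in hypoxia, differed by 0.01 (95% interval -0.28 to 0.30) and is given after its value was seen.

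**Figure D4:**
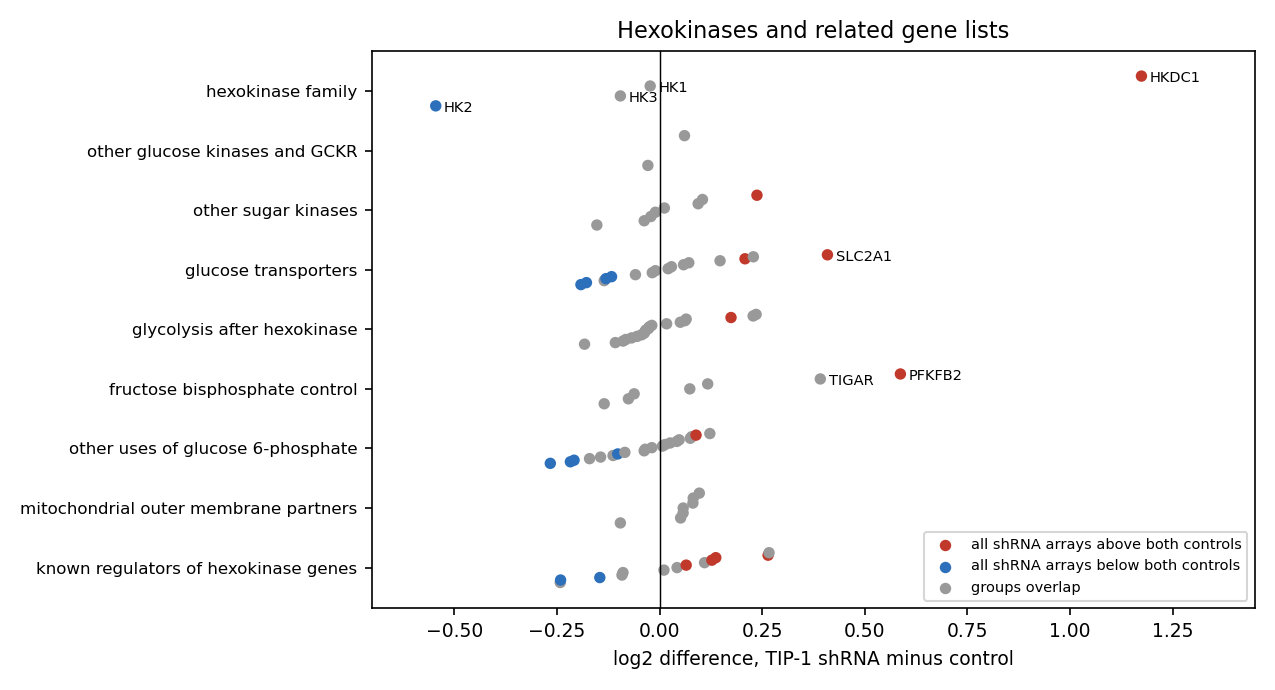
Log2 difference (TIP-1 shRNA minus control shRNA) of each measured gene in the hexokinase family and 8 related lists, 1 point per gene, coloured by whether all shRNA arrays lay above both controls, all below, or neither. HKDC1 (1.17) and HK2 (-0.55) lie at the ends of the range; PFKFB2 (0.59) and SLC2A1 (0.41) are the next separated genes on the higher side.

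Because HKDC1 is known from epithelia and liver and HK3 from myeloid cells, markers of those cells were read beside them. Of 7 epithelial markers, 1 had all shRNA arrays above both controls and 1 all below, beside 11.6% and 14.5% of all rows, and their summed log2 signal ran from 67.6 to 68.0 in the controls and from 66.8 to 67.8 with TIP-1 shRNA. EPCAM, the marker with the smallest p, had 2 rows that disagreed. The brighter row gave the 1 marker all below. It stood at 6.75 and 6.75 in the controls, against 6.55, 6.22 and 5.88 with the shRNAs (difference -0.53). The other row had overlapping groups, at 6.24 to 6.40 in the controls and 6.11 to 6.57 with the shRNAs, and differed by 0.04. Which row better reports EPCAM was not examined. CDH1 (0.08, but 0.03 without control 2) followed, with KRT8 (0.12) and CLDN4 (-0.07), which both came to 0.00 without shRNA 3. The epithelial markers differed in level: KRT8 (13.28 to 13.73), KRT18 (12.56 to 13.02) and CLDN4 (10.8 to 11.09) were bright. CDH1 (6.64 to 6.78) and both EPCAM rows lay below the array medians, and KRT19 (8.33 to 8.64) and MUC1 (8.45 to 8.86) lay between. For 6 hepatocyte markers, 0 lay above and 2 below (0% and 33.3%; sums 40.7 to 41.0 against 40.3 to 40.7), with TF at -0.16, APOA1 at -0.19 (-0.20 on its other row), CYP3A4 at 0.07 and ALB at 0.02 (-0.02 without control 2). Of 9 myeloid markers, 1 lay above and 3 below (11.1% and 33.3%, beside the same 11.6% and 14.5%), with sums of 65.8 to 66.8 in the controls and 63.9 to 66.2 with TIP-1 shRNA. CSF3R (-0.31), TYROBP (-0.21), MPO (-0.13) and CSF1R (0.10) had the smallest p there. Most of the hepatocyte and myeloid rows named here were dim. TF (6.12 to 6.38), CYP3A4 (5.58 to 5.84) and ALB (5.35 to 5.44) lay below the array medians, where presence cannot be called. So did CSF3R (6.73 to 7.30) and MPO (6.75 to 6.98), with CSF1R (7.80 to 7.94) near the medians. APOA1 (8.33 to 8.70) and TYROBP (8.99 to 9.40) lay above them. Of the 10 glial and glioma markers, VIM (13.84 to 14.02), CD44 (13.73 to 13.80), EGFR (11.12 to 11.30) and SOX9 (10.39 to 10.74) were bright. GFAP (7.86 to 8.14) and NES (7.78 to 8.06) lay near the array medians. OLIG2 (7.13 to 7.50), SOX2 (7.05 to 7.26), PDGFRA (6.42 to 6.65) and S100B (6.23 to 6.31) lay below them. Presence cannot be called for the markers near or below the medians. SOX9 had the smallest p (difference 0.26), and EGFR (-0.13), PDGFRA (-0.14) and NES (-0.13) followed. No marker in these lists passed the test, and less transcript per cell cannot be told apart from fewer cells with it.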

How the data were processed

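Total RNA of each culture was labelled as single-stranded cDNA and hybridised to an Affymetrix whole-transcript array. The design text states a Human Exon platform and the Exon Array Computational Tool of Affymetrix for the processing by the authors. The platform annotation paired with these rows is that of a gene-level array, which disagrees with the stated platform. Background correction, normalization and build were not given in the sources used here. Deposited by the authors as log2 signals per transcript cluster, values ran from 3.27 to 14.7. Array quartiles nearly coincided, so they were not rescaled. Rows were named through the platform annotation (19460 with 1 symbol, 1754 with several, 12083 with none), and a row with several symbols was used for TAX1BP3 alone. The row with the highest mean stood for a gene. The neighbours of HKDC1 were taken by order in a RefSeq gene table.

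Differences (TIP-1 shRNA minus control shRNA) were fitted over all 33297 rows with limma 3.58.1 in R 4.3.3, two-sided, with Benjamini-Hochberg adjustment, and the script was tested on simulated data. Precision is limited by having 2 and 3 arrays. The members and the 13 gene lists (129 of 141 symbols measured, the rest not analysed here) were chosen with earlier results of these data known. Beside the members, the text names the sugar kinases, GCKR and up to 4 genes per list by smallest p. It also names all measured neighbours and the 5 rows most like HKDC1. Arrays with the same number deviated together at r = 0.049 and -0.053, so no pairing by number was assumed. Alternatives were quantile normalization, median centring, bright rows only, a trended robust prior, array weights, the replicate block, 1 array left out, and the mean of all rows of a gene.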

Additional observations from a re-analysis of the deposited data

How the results depend on the processing

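HKDC1 and HK2 kept their direction under every alternative run, and neither passed the threshold in any. HKDC1 ran from 0.83 to 1.52 and HK2 from -0.62 to -0.47 with 1 array left out; the limma adjusted p ran from 0.412 to 0.958 and from 0.394 to 0.98. With the replicate block they were 1.10 and -0.48 (adjusted p = 0.158 and 0.347); shRNA 3 has no partner there and does not enter the difference. HK1 turned to 0.0384 with median centring. HK3 kept its sign, at -0.188 to -0.00233 with 1 array left out, and had no value among bright rows. The HKDC1 to HK1 ratio ran from 0.87 to 1.52, lowest without control 1 and highest without control 2. Rows past the threshold numbered 1 with the deposited values and equal weights, 2 with array weights and 15 with the replicate block. With 1 array left out they numbered 0 to 6: 6 when shRNA 3 was the one left out, 2 for shRNA 1, and 0 for shRNA 2 or either control. In these settings 0 members of the 13 lists passed. Fits with 1 control borrow its spread from the shRNA arrays. Among list medians, those of the glycolysis (0.0310), glucose 6-phosphate (0.0343), hepatocyte (0.0401), epithelial (0.00165) and glial (0.00304) lists and of the 4 hexokinases (0.00209) lay above 0 with median centring, against below 0 as deposited. Medians also turned below 0 for regulators (-0.0351 without shRNA 3), transporters (-0.0306 without shRNA 2), fructose bisphosphate control (-0.0711 without shRNA 1) and sugar kinases (-0.0365 without shRNA 3). The epithelial (0.0352 without shRNA 2), glial (0.0046 without shRNA 3) and hepatocyte (0.0349 with quantile normalization) medians turned above 0. Of 142 genes in the lists, neighbourhood and likeness search, 54 changed sign with some array left out, and 63 others moved by over 1.5 times (values at 2 decimals). List medians moved beyond the spread of their arrays in 9 of 156 values. Dim rows such as HK3, G6PC1, SLC2A9, GAPDHS, MLXIPL, PFKFB1 and FBP2 lay below the array medians and are limited by the lack of a detection call.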
